A study of Homo sapiens with 9 samples.

Results

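The 10 genes described here serve V(D)J recombination, and encode the RAG recombinase, terminal deoxynucleotidyl transferase and the proteins of classical non-homologous end joining. They were chosen as a named set, and every array probe whose transcript identifier maps to one of them was taken. That gave 12 probes, of 57176 on the array, and 10 genes of 19722 with a symbol there. *PRKDC* and *DCLRE1C* had 2 probes each and the other genes 1. Each array had all 12 well above background.

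The RNA came from ALL-SIL, an established T cell acute lymphoblastic leukemia (T-ALL) line that carries a *TLX1* rearrangement. Cells were electroporated with 1 of 3 reagents: a non-targeting control siRNA, *PHF6* siRNA1 or *PHF6* siRNA2. There were 3 samples per reagent, numbered 1 to 3, and the controls were electroporated as well. The labels give 96 h after electroporation as the time of collection in one field and 72 h in another. The methods of the study give 96 h for ALL-SIL cells. All samples are of 1 cell line with a transient knockdown, and the labels do not say which siRNA product is siRNA1. The study calls the samples independent, but the labels do not say whether one number marks one culture day, so p-values measure the spread between these samples. In bulk RNA, fewer cells that express a gene and less RNA per cell cannot be told apart.

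In developing lymphocytes RAG1 and RAG2 form the recombinase that cuts at recombination signal sequences beside the antigen receptor gene segments. The Ku heterodimer of XRCC5 (Ku80) and XRCC6 (Ku70) binds the broken ends and recruits the kinase DNA-PKcs, the product of *PRKDC*. Artemis, the product of *DCLRE1C*, opens the hairpin-sealed coding ends, the transferase encoded by *DNTT* adds nucleotides without a template, and LIG4 with XRCC4 and the XLF protein of *NHEJ1* seals the joint. *RAG1*, *RAG2* and *DNTT* are restricted to lymphoid precursors, and the joining genes are used by most cells to repair double-strand breaks. In the human thymus, RAG activity goes with the immature and cortical stages, which include CD1A-positive cells.

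The DNA before the start of 4 members is shown because their estimates, given further on, were among those farthest from 0 in the set or belong to the partner gene *RAG2*. It is the 250 bases before a RefSeq start of *RAG1*, *RAG2*, *DNTT* and *NHEJ1*, on GRCh38.p14 and 5′ to 3′ in the direction of the gene. Capitals mark 4 short motifs searched on both strands, namely the E-box CANNTG, the RUNX motif TGTGGT, the GATA motif AGATAA and the TATA box TATAAA. They do not overlap one another in these windows.
RAG1, GRCh38.p14 chr11:36510103-36510352, plus strand: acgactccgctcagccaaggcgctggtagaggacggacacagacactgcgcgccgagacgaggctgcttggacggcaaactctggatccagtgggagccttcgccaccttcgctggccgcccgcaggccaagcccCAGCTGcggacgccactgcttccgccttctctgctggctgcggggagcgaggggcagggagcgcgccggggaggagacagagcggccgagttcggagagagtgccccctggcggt
RAG2, GRCh38.p14 chr11:36598237-36598486, minus strand: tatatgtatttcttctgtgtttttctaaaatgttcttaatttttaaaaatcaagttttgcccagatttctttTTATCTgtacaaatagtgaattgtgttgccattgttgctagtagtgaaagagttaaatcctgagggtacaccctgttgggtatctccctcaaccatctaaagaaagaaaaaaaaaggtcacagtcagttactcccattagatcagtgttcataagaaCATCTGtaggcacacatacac
DNTT, GRCh38.p14 chr10:96304184-96304433, plus strand: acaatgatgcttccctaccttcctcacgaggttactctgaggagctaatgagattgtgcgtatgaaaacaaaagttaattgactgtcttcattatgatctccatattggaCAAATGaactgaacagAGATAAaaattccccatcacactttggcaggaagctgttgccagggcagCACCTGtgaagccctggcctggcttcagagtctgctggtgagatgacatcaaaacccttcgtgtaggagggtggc
NHEJ1, GRCh38.p14 chr2:219160816-219161065, minus strand: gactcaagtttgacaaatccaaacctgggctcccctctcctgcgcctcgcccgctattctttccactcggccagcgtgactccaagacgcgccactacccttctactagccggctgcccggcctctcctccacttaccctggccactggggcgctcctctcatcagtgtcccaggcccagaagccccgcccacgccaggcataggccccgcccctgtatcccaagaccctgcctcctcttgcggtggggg

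The *RAG2* window is rich in A and T, with 34.0% G and C and 0 CpG dinucleotides, and the *DNTT* window has 46.4% G and C and 3 CpG. The *RAG1* window printed is different, with 70.0% and 25 CpG. Windows were chosen by gene symbol and were not matched to the transcript that a probe measures. The *RAG1* window therefore need not lie before the start of the transcript measured here. The *NHEJ1* window printed has 65.2% and 14 CpG, while the window of its other RefSeq start has 71.6% and 30 CpG. The median over all 35116 windows was 58.0% and 11 CpG. *RAG2* and *DNTT* each hold 1 AGATAA match, at positions -178 and -124 from the start, and 9.17% of all windows hold one. E-boxes stood in the windows of *RAG1* (1), *RAG2* (1) and *DNTT* (2) and in 61.8% of all windows. TGTGGT and TATAAA were in none of the 4 windows printed, against 11% and 10.7% of all windows. Of the 10 genes, 8 had a window in the table, and the second *NHEJ1* window is not printed. A match is a run of letters and not a bound site.

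The check of the knockdown came first. *PHF6* (A_23_P171385), which encodes a PHD finger chromatin protein, measured 11.07, 11.17 and 10.86 with control siRNA, 9.39, 9.69 and 9.12 with siRNA1 and 9.20, 9.28 and 9.14 with siRNA2, in the order of replicates 1, 2 and 3. These are levels on a generalized log2 scale, on which 1 unit is close to a doubling of signal for a bright probe. Every siRNA array lay below every control array. The log2 fold change with both siRNAs was -1.73 (SE 0.09, adjusted p = 8.27e-05, limma), which is 0.302 of the control level. siRNA1 gave -1.63 and siRNA2 gave -1.83.

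No member passed the test with both siRNAs against control (limma with the replicate number as a block, Benjamini-Hochberg over 33595 probes, threshold 0.05), where 2.74% of all probes tested did. At an unadjusted p under 0.05, 4 of the 10 genes stood out, with a background of 21.8% of probes. These were *RAG1* and *DNTT*, with higher levels, and *NHEJ1* and *XRCC6*, with lower ones. The adjusted p of *NHEJ1* was 0.054 and that of *RAG1* was 0.054, so both lay just outside the threshold. Without the replicate block, 0 members passed, 2 had an unadjusted p under 0.05 against 7.43% of probes, and 3 probes on the whole array passed. Across the members 6 estimates were positive and 4 negative, with a median log2 fold change of 0.08 against -0.04 over 14682 genes.

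**Figure D1:**
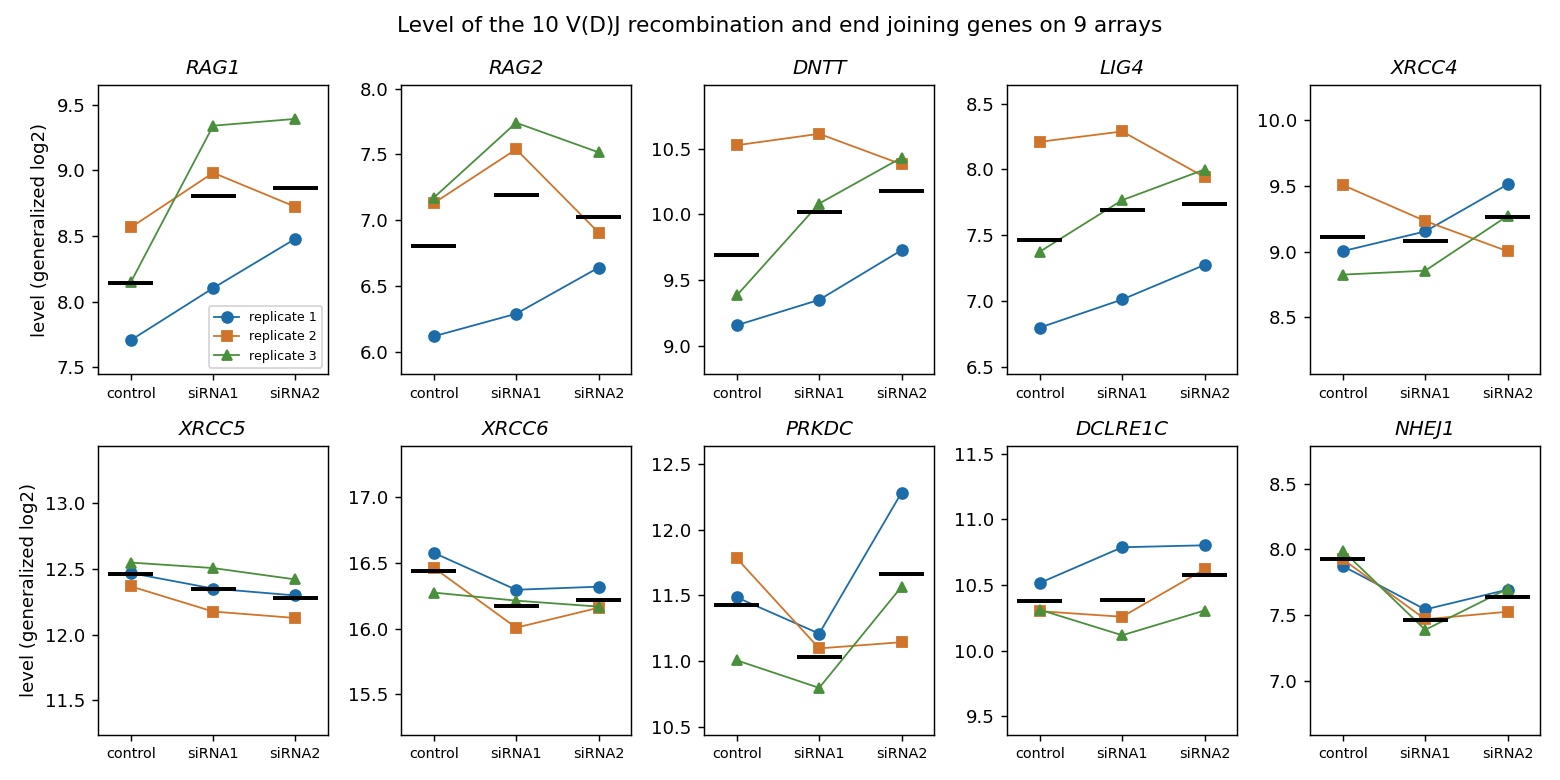
Generalized log2 level (vertical axis, each panel spanning the same number of units) of each member's brightest probe in the control, siRNA1 and siRNA2 groups. Lines join arrays of one replicate number, which are not time courses, and black bars are group means (n = 3). *RAG1* lies above the same-numbered control on all 6 siRNA arrays, and *NHEJ1* is the panel in which all siRNA arrays lie below all control arrays.

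*RAG1*, the catalytic subunit of the recombinase, had the largest positive estimate of the set. Probe A_23_P360744 measured 7.71, 8.57 and 8.15 with control siRNA, 8.10, 8.98 and 9.34 with siRNA1 and 8.48, 8.72 and 9.39 with siRNA2, again for replicates 1, 2 and 3. Each siRNA array lay above the control of its own number, but the groups overlapped, since control replicate 2 was higher than the 2 siRNA arrays of replicate 1. The log2 fold change was 0.70 (SE 0.16, 95% confidence interval 0.33 to 1.06, adjusted p = 0.054 by limma), or 1.62-fold. An exact two-sided permutation, which moved the control among the 3 arrays of each number, gave p = 0.037, the smallest that its 27 arrangements allow. It reflects the order of each siRNA array and its own control. Of all probes, 10.7% had 6 of 6 above and 10.9% had 6 of 6 below, so it is no separate support. siRNA1 gave 0.67 (SE 0.19, adjusted p = 0.111) and siRNA2 gave 0.72 (SE 0.19, adjusted p = 0.085). The difference between the 2 siRNAs was 0.06, with an interval of -0.36 to 0.48.

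The size of the *RAG1* difference depended on the replicate number. The mean of both siRNAs minus control was 0.58 in replicate 1, 0.29 in replicate 2 and 1.22 in replicate 3. Replicates 1 and 2 of every group were on 1 slide and replicate 3 on another. Within the first slide the log2 fold change was 0.44 (adjusted p = 0.183), and the second slide had 1 array per group, so that it gives a value of 1.22 and no test. Leaving out 1 array at a time gave a call for *RAG1* only without siRNA2 replicate 2, the siRNA array with the smallest difference, where a larger estimate (0.81, adjusted p = 0.037) follows from which array is dropped. The other 8 single omissions gave adjusted p of 0.063 to 0.196. The study itself marks *RAG1* as significantly upregulated after *PHF6* knockdown in ALL-SIL cells, without stating a threshold or adjustment for that mark. Here the direction was the same, and the unadjusted p was 0.0017 (limma). *RAG1* did not pass the adjusted threshold of the main test with both siRNAs, nor that of the test without the replicate block. The cause of this difference was not tested. Because the study reports *RAG1* on these samples, the position of *RAG1* here is no independent evidence.

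*RAG2*, the partner subunit (A_23_P64525), measured 6.12, 7.13 and 7.17 with control siRNA, 6.29, 7.54 and 7.74 with siRNA1 and 6.64, 6.91 and 7.52 with siRNA2. The siRNA array was the higher one in 5 of 6 pairs with the same-numbered control, siRNA2 replicate 2 being the exception. The log2 fold change was 0.30 (SE 0.14, 95% confidence interval -0.02 to 0.62, adjusted p = 0.261). Its interval holds 0. Replicate 1 was low in all 3 groups, with a mean of 6.35 against 7.19 and 7.48 in replicates 2 and 3, a spread of 1.13 that is wider than the group difference.

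*DNTT*, which encodes the template-independent polymerase TdT (A_23_P409489), measured 9.16, 10.53 and 9.38 with control siRNA, 9.35, 10.61 and 10.08 with siRNA1 and 9.73, 10.38 and 10.43 with siRNA2. It too lay above its own control in 5 of 6 arrays, all but siRNA2 replicate 2. The log2 fold change was 0.41 (SE 0.16, 95% confidence interval 0.05 to 0.77), with an unadjusted p of 0.030 and an adjusted p of 0.179. The difference was 0.87 in replicate 3, 0.38 in replicate 1 and -0.03 in replicate 2. Within the first slide it was 0.18.

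*LIG4*, the ligase that closes the joint (A_24_P415845), followed the same arrays as *DNTT*. It measured 6.80, 8.21 and 7.37 with control siRNA, 7.01, 8.29 and 7.77 with siRNA1 and 7.27, 7.94 and 8.0 with siRNA2. It lay above its own control in 5 of 6 arrays, and its log2 fold change was 0.25 (SE 0.14, adjusted p = 0.311). Control replicate 2 exceeded control replicate 1 by 1.41, which is wider than the group difference.

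*XRCC4*, the scaffold that holds the ligase (A_23_P122174), measured 9.0, 9.51 and 8.82 with control siRNA, 9.15, 9.23 and 8.85 with siRNA1 and 9.51, 9.0 and 9.27 with siRNA2. In replicate 2 both siRNA arrays were lower than control, and in replicates 1 and 3 both were higher. The log2 fold change was 0.06 (95% confidence interval -0.28 to 0.40, adjusted p = 0.854).

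**Figure D2:**
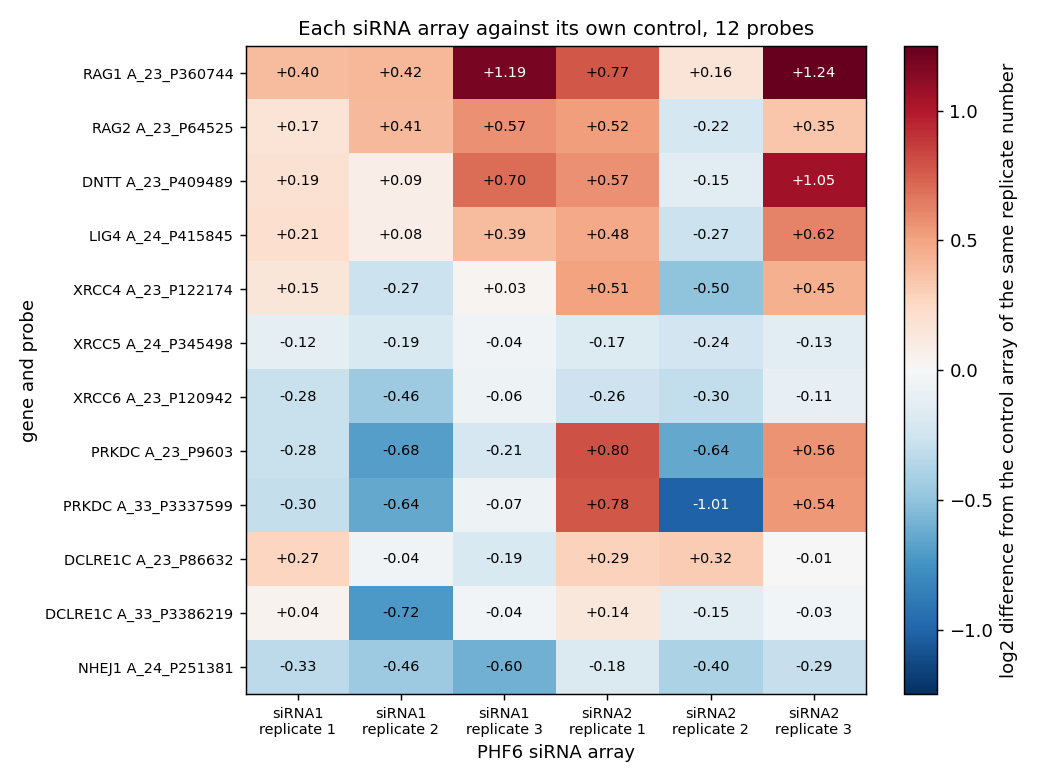
Difference of each siRNA array (columns) from its same-numbered control for the 12 probes (rows), in log2 units, with red for higher and blue for lower. The *RAG1* row is positive in all 6 columns (0.16 to 1.24), the *XRCC5*, *XRCC6* and *NHEJ1* rows are negative in all 6, and *PRKDC* changes sign between columns for both of its probes.

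*NHEJ1* encodes XLF, which bridges the ends together with XRCC4. Its probe (A_24_P251381) measured 7.87, 7.92 and 7.99 with control siRNA, 7.54, 7.47 and 7.39 with siRNA1 and 7.69, 7.53 and 7.70 with siRNA2. All 6 siRNA arrays lay below all 3 control arrays, as did 2.07% of the 33509 probes with a value on every array, and no member had all 6 above the controls, against 1.84% of probes. The replicate number had little part in this gene, whose means over replicates 1, 2 and 3 differed by 0.06. The log2 fold change was -0.38 (SE 0.09, 95% confidence interval -0.57 to -0.18, adjusted p = 0.054), or 0.771 of control. The exact permutation p was 0.037, which again reflects the order of the arrays and is no separate support. siRNA1 gave -0.46 (adjusted p = 0.066) and siRNA2 gave -0.29 (adjusted p = 0.163). Within the first slide the value was -0.34 and on the second -0.45.

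Both Ku genes were slightly lower in every siRNA array than in its own control. *XRCC6* (A_23_P120942) measured 16.58, 16.46 and 16.27 with control siRNA, 16.30, 16.01 and 16.21 with siRNA1 and 16.32, 16.16 and 16.17 with siRNA2. Its log2 fold change was -0.24 (SE 0.09, 95% confidence interval -0.45 to -0.04), with an unadjusted p of 0.022 and an adjusted p of 0.155. On the first slide it was -0.32 and on the second -0.08. *XRCC5* (A_24_P345498) measured 12.47, 12.37 and 12.55 with control siRNA, 12.35, 12.18 and 12.51 with siRNA1 and 12.30, 12.13 and 12.42 with siRNA2, with a log2 fold change of -0.15 (SE 0.08, adjusted p = 0.310). The groups overlapped in both genes. The exact permutation p was 0.037 for each, which reflects the same 6 of 6 order and is no separate support. With *NHEJ1* this made 3 members lower than their own control in 6 of 6 arrays, against 10.9% of all probes and 14.2% of genes read through their brightest probe. *RAG1* was the 1 member higher in 6 of 6, against 10.7% of probes and 7.28% of genes.

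*PRKDC*, the DNA-PK catalytic subunit, gave the largest difference between the 2 siRNAs. Its brighter probe (A_23_P9603) measured 11.48, 11.78 and 11.005 with control siRNA, 11.21, 11.10 and 10.80 with siRNA1 and 12.28, 11.14 and 11.56 with siRNA2. siRNA1 arrays lay below control in all 3 replicates, and siRNA2 arrays lay above it in replicates 1 and 3 and below it in replicate 2. siRNA2 minus siRNA1 was 0.63 (SE 0.22, 95% confidence interval 0.13 to 1.13), with an unadjusted p of 0.019 and an adjusted p of 0.448. The second probe (A_33_P3337599) gave 0.44 (SE 0.28, adjusted p = 0.632) and had the same signs in all 6 arrays. Both siRNAs together gave -0.08 (adjusted p = 0.856) and -0.12 for the 2 probes. No member passed the test between the siRNAs, against 0.0387% of probes, and 1 member had an unadjusted p under 0.05, against 9.65%.

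The 2 probes of *DCLRE1C*, the Artemis nuclease gene, went apart. A_23_P86632 ranged over 10.30 to 10.52 with control siRNA, 10.12 to 10.79 with siRNA1 and 10.31 to 10.80 with siRNA2, with a log2 fold change of 0.11 (adjusted p = 0.580). A_33_P3386219 ranged over 6.28 to 6.58, 5.86 to 6.42 and 6.25 to 6.52, with -0.12 (adjusted p = 0.607). Neither differed from 0 beyond its error, and the groups overlapped for both.

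The 2 siRNAs were also read alone. siRNA1 and siRNA2 called 0 members each, while 0.950% and 1.64% of probes passed for siRNA1 and siRNA2. At an unadjusted p under 0.05 siRNA1 gave 4 members (*RAG1*, *RAG2*, *NHEJ1* and *XRCC6*) against 19.2% of probes, and siRNA2 gave 3 (*RAG1*, *DNTT* and *NHEJ1*) against 19.5%. The 2 comparisons share the control arrays.

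**Figure D3:**
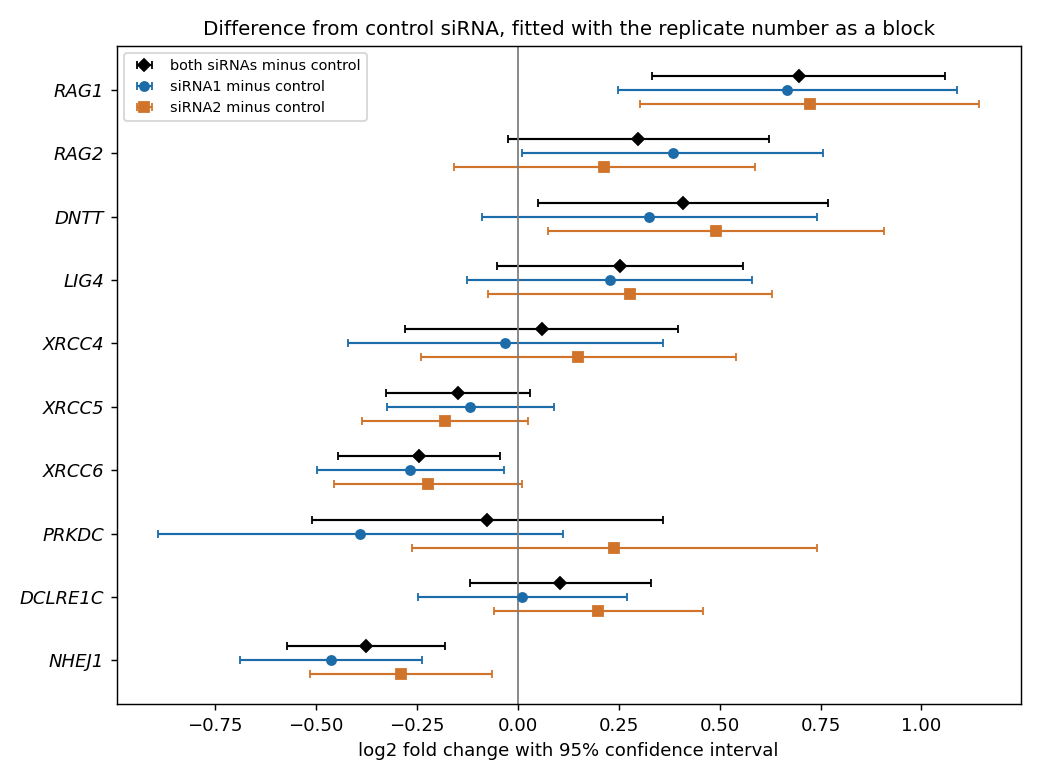
Log2 fold change against control siRNA (horizontal axis) of the 10 members for both siRNAs, siRNA1 and siRNA2, with 95% confidence intervals from limma with the replicate block. *RAG1* (0.70 with both siRNAs) and *NHEJ1* (-0.38) have intervals that leave out 0 for each siRNA, before adjustment for the number of probes.

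Sets of members were high and low on the same arrays. After the mean of each replicate number was subtracted, *RAG1*, *RAG2*, *DNTT* and *LIG4* gave Pearson correlations of 0.72 to 0.96 with each other over the 9 arrays, highest for *DNTT* with *LIG4* (0.96) and *RAG1* with *DNTT* (0.94). *XRCC5* and *XRCC6* gave 0.87, and *XRCC4* and *PRKDC* also gave 0.87. The lowest value was -0.73, for *RAG1* with *NHEJ1*. These are descriptions over 9 arrays that share siRNA, slide and signal scale, and a difference between siRNA and control arrays enters each of them. As a background, 0.607% of genes had a correlation over 0.9 with *DNTT* and 0.573% with *RAG1*. For the pairs under 0.9 no such share was computed, so how common such values are among all genes is not known here.

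The same measure was used to look for the genes most like the 3 lymphoid members among 14661 others. For *RAG1* they were *CCDC7* (r = 0.98), *RC3H1* (0.97) and *CD1A* (0.97), a surface antigen of cortical thymocytes and 1 of 2 genes with a positive estimate among the 11 T lineage and T-ALL markers described further on. *CD1A* (A_23_P402670) measured 9.42, 11.26 and 10.78 with control siRNA, 10.08, 11.63 and 11.84 with siRNA1 and 10.37, 11.15 and 12.11 with siRNA2. Like *DNTT*, it lay above its own control in all but siRNA2 replicate 2, with a log2 fold change of 0.71 (SE 0.19, adjusted p = 0.073). For *RAG2* the genes were *NOPCHAP1* (0.98), *HCRTR1* (0.97) and *FGF9* (0.95), with log2 fold changes of 0.07, 0.10 and 0.12. For *DNTT* they were *PABPC4L* (0.98), *SLC25A44* (0.98) and *HPS4* (0.97), with 0.15, 0.13 and 0.12. None of these 9 passed the test.

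**Figure D4:**
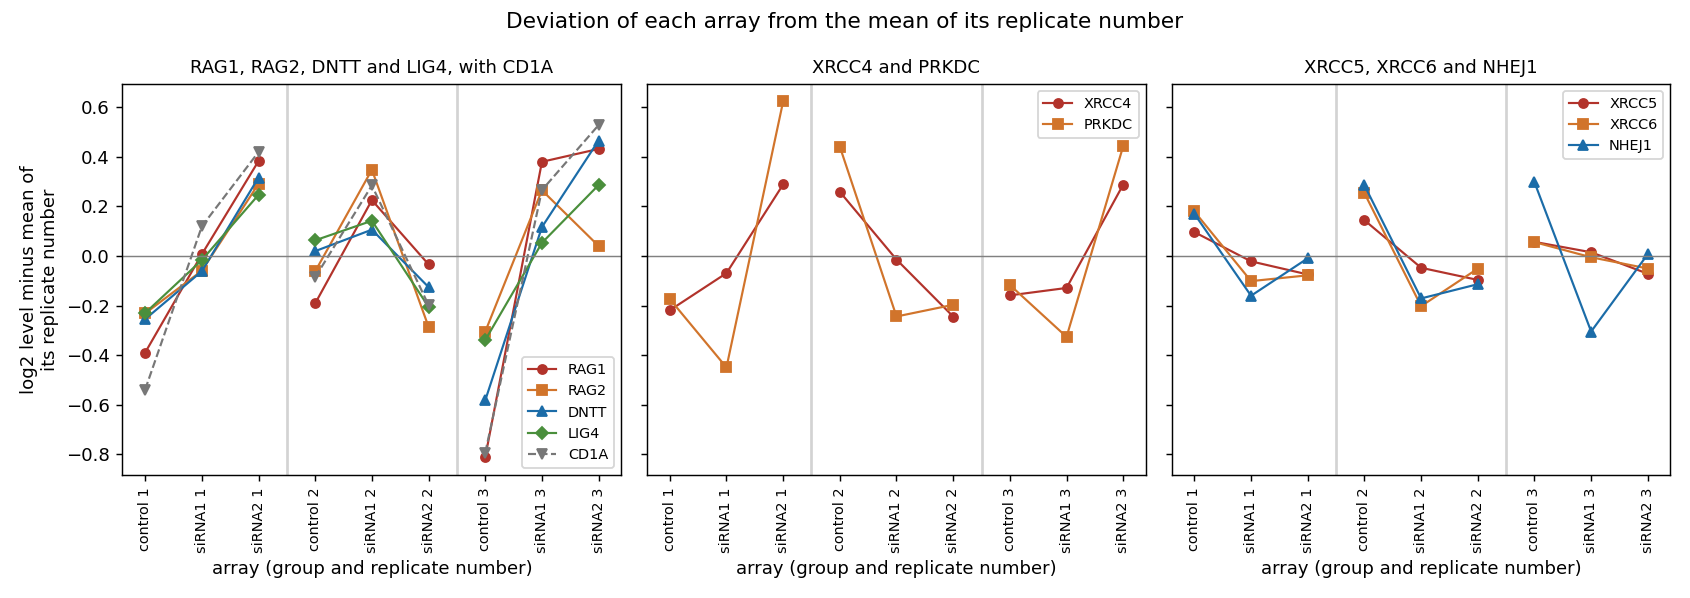
Log2 level of each array less the mean of its replicate number (vertical axis) for 3 sets of genes over the 9 arrays (horizontal axis). *CD1A* is drawn dashed beside *RAG1*, *RAG2*, *DNTT* and *LIG4*, with a correlation of 0.97 to *RAG1*; *XRCC4* and *PRKDC* share a peak at siRNA2 in replicates 1 and 3.

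The wider recombination and repair network was read from lists of 63 genes, of which 59 had a tested probe. None was called through its brightest probe. An unadjusted p under 0.05 was found for 11 (18.6%), against 19.1% of all 14682 genes, and 23 estimates were positive and 36 negative (39.0% positive), against 40.9% positive over all genes. Both shares are near the background. The accessory end joining factors had 9 tested genes, 3 positive and 6 negative, with a median log2 fold change of -0.05. Their lowest p belonged to *CYREN*, a regulator of Ku-dependent joining, at -0.22 (adjusted p = 0.154). In the break sensing and end protection list of 13 tested genes, 5 were positive and 8 negative, with a median of -0.03. *ATM*, the kinase that signals double-strand breaks, had the lowest p there, at 0.34 (adjusted p = 0.067), and measured above its own control in 6 of 6 arrays. Its second probe gave 0.09 (adjusted p = 0.670).

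Alternative end joining had 7 tested genes with a median of -0.05, and *RBBP8*, whose product CtIP starts end resection, was at -0.24 (adjusted p = 0.180). Homologous recombination had 9 tested genes with a median of 0.07 and a narrow range of -0.15 to 0.15, and none had an unadjusted p under 0.05. Its lowest p was that of *BARD1*, the partner of BRCA1, at 0.15 (adjusted p = 0.360). Among 7 RAG cofactors and turnover genes the median was -0.05, and *DDB1*, a subunit of the ubiquitin ligase linked to RAG1 turnover, was at -0.26 (adjusted p = 0.135). *TRAF6*, a neighbour of the RAG locus and the 1 of 2 that was tested, was at 0.06 (adjusted p = 0.718).

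Transcription factors known to act on the *RAG* or *DNTT* loci had 13 tested genes, 5 positive and 8 negative, with a median of -0.04. The study marks *IKZF1*, a gene of this list, as significantly upregulated in ALL-SIL cells, and none of its probes was called here. *FOXO1*, an activator of *RAG* transcription in lymphoid precursors, had the lowest p at 0.25 (adjusted p = 0.144). It measured 7.64, 7.25 and 7.39 with control siRNA, 7.80, 7.42 and 7.75 with siRNA1 and 7.74, 7.66 and 7.73 with siRNA2. *RUNX1*, *FOXP1*, *MYB* and *FOXO1* were the 4 genes of the list above their own control in 6 of 6 arrays, or 30.8% of the 13 tested against 7.28% of all genes, and each was read through its brightest probe. *RUNX1* had 5 probes, all with positive estimates, and its brightest gave 0.22 (adjusted p = 0.169), but a dimmer one, A_24_P34155, passed at 0.76 (adjusted p = 0.011). *FOXP1* had 3 probes, and its dimmest, A_33_P3214310, passed at 0.54 (adjusted p = 0.045). These 2 were the only calls among all 79 probes of the lists, a share of 2.53% that is near the 2.74% of all probes tested. Both were picked out with their values in view, and both are lost without the replicate block, at adjusted p of 0.646 and 0.654.

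Markers were read beside these values. Each of the 11 T lineage and T-ALL markers was well above background on each of the 9 arrays. The mean over the list was 12.28 to 12.59 with control siRNA, 12.08 to 12.32 with siRNA1 and 12.16 to 12.31 with siRNA2. Estimates were negative for 9 of the 11 and positive for 2 (*CD1A* and *CD2*), with a median log2 fold change of -0.14, and 4 lay below their own control in 6 of 6 arrays. Over all 14682 genes, 8671 estimates were negative, the median was -0.04 and 14.2% lay below in 6 of 6. Of all these genes 178 were called lower. 2 of the 11 markers were called lower, *CD7* at -0.76 (adjusted p = 0.012) and *PTCRA* at -0.73 (adjusted p = 0.008), and neither is called without the block (0.586 and 0.646). The study also marks *PTCRA* as significantly downregulated in ALL-SIL cells, so its call is no independent evidence. Of 7 B lineage genes 3 were above background on all arrays and *EBF1* on none. Their mean level was 6.88 to 7.04, 6.67 to 6.80 and 6.65 to 6.79 in the 3 groups, and 4 of the 5 tested had negative estimates, with a median of -0.33 and a lowest value of -1.04 (*VPREB1*, adjusted p = 0.118). *CD79B* was called lower at -0.48 (adjusted p = 0.042, and 0.724 without the block). Of 4 myeloid genes with a probe 1 was above background on all arrays and *CD33* on none. Of 5 proliferation genes 4 had negative estimates and 0 were called, with mean levels of 13.49 to 13.78, 13.49 to 13.62 and 13.48 to 13.53. The part of cell state in the values of the members was not tested.

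Median intensity was 43.5 to 58.0 per array, 29694 to 33751 probes per array were well above background, and no spot was saturated. Control probes without a target had a median of 23.0 to 27.5 in these arrays. The number of arrays limits the precision.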

How the data were processed

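Each of 9 ALL-SIL samples was hybridised to its own one-colour array (Agilent, custom design), and groups and replicate numbers were taken from the labels. The authors deposited spot intensity values from Feature Extraction, not normalized between arrays, with flags of 0 or 1 per spot (other), and a table of log2 values, normalized with VSN per the study's methods. The table was used as an alternative, since which intensity entered it is not stated. Here VSN was fitted to the median intensity without background subtraction by code written for this purpose (7 iterations, quantile 0.9), as the vsn package was not used. Outlier spots were left out, and spots of a probe were averaged.

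A probe was tested if 3 or more arrays had it well above background (33595 of 57176). Tests used limma 3.58.1 in R 4.3.3, with statmod 1.5.0. The model held the group and the replicate number as a block, p was adjusted by Benjamini-Hochberg, and the threshold was 0.05. A gene was represented by its brightest probe. The code of the model was run on values simulated from that same model, which cannot show whether the replicate block is right. Named genes were all members, *PHF6*, the gene of lowest p in each list without a call, and the 3 genes most correlated with *RAG1*, *RAG2* and *DNTT*. The members, lists and tests were chosen with earlier results of these data known.

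The replicate number was entered as a block because the labels give each number once in every group. The study also tested RT-qPCR of ALL-SIL cells as paired. In these same data, same-numbered arrays deviated together from their group means (correlation 0.31 to 0.74 in all 9 pairs). The 18 other pairs gave -0.57 to 0.13. Deviations cancel out within a group, so these lower values follow from the 9 pairs and are no separate support for the block. Without the block, 3 probes were called with both siRNAs, and with it 919. Symbols came from RefSeq and Ensembl identifiers. The array annotation is on another build than the table, so no probe position is given. Arrays have no read depth.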

Additional observations from a re-analysis of the deposited data

How the results depend on the processing

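The count of members called with both siRNAs, 0 as reported, was 1 with normexp correction and quantile normalization (*NHEJ1*), 2 with probes well above background on all 9 arrays and 2 with trended and robust variance moderation (*RAG1* and *NHEJ1* each time), and 1 with the replicate number as a random effect (*NHEJ1*). It stayed at 0 with no replicate block, in the deposited table and in the other settings that kept all arrays, and ranged from 0 to 1 when arrays were left out, with *RAG1* called without siRNA2 replicate 2 and in no other single omission. Of 33595 probes, the main fit called 919, 1288 with normexp and quantile normalization, 1904 with trended moderation and 640 with the random effect. With all 9 arrays required it was 1589 of 27664, and without siRNA2 replicate 2 it was 777. For siRNA1 alone the count of members was 1 (*NHEJ1*) with normexp and quantile normalization, with all 9 arrays required and with trended moderation. These settings called 493, 601 and 863 probes in turn, against 319 in the main fit. For siRNA2 alone and between the siRNAs the count of members was 0 in every setting tried.

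*RAG1*, *RAG2*, *DNTT* and *LIG4* kept a positive log2 fold change and *XRCC5*, *XRCC6* and *NHEJ1* a negative one in all 25 alternatives that gave this comparison. Part of this was fixed beforehand. The filter, block and variance moderation settings, and the mean of probes for these single-probe genes, left each estimate unchanged. Leaving out a control array gave the same estimate as leaving out its whole replicate. *RAG1* ranged from 0.44 to 0.90 with adjusted p from 0.033 to 0.654, and *NHEJ1* from -0.44 to -0.34 with 0.027 to 0.620. With no replicate block *RAG1* was 0.70 (adjusted p = 0.654) and *NHEJ1* -0.38 (adjusted p = 0.620). *XRCC4* reversed in 6 of the alternatives, all with arrays left out, where it ranged from -0.075 to 0.28. *PRKDC* ranged from -0.24 to 0.22 and reversed in 3 that left out replicate 2 or an array of it. *DCLRE1C* became -0.0092 with the mean of its 2 probes. Calls in the lists, 0 as reported, were 3 with normexp and quantile normalization (*ATM*, *RUNX1* and *MYB*, all higher), 1 with all 9 arrays required and 1 with trended moderation (*ATM*), and 1 with the mean of a gene's probes (*RUNX1*). Over the whole array these settings called the numbers given above, with 799 of 29382 for the mean of a gene's probes. The cause of these differences was not tested. Signal over background and 3 arrays per group limit what could be called.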
